A study of Lentinus tigrinus with 27 samples.

Results

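Only 4 of 15581 gene models of the mushroom Lentinus tigrinus were raised evenly in all fruiting groups over vegetative mycelium, by log2 means. They carry the identifiers Lenti6_1_569724, Lenti6_1_611870, Lenti6_1_577428 and Lenti6_1_507946. M is the mean of log2(TPM + 1) over the 3 libraries of a group, where TPM is a transcript level corrected for gene length and library size. A member had a lowest M over the 8 fruiting groups of at least 3, this lowest M was at least 1 above the M of vegetative mycelium, and M varied by less than 0.8 among the 8 groups. A rise of 1 is 2-fold for these log2 means, and mean TPM could rise by less. In Lenti6_1_611870, mean TPM was 34.7 in mature cap against 20.2 in vegetative mycelium, under 2-fold. The values of M chose the members, so the group means below describe them and test nothing. The files and the reference gene table pair none of the identifiers with a name or function, so no role can be given for any of the 4 genes and no sequence is shown.

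PolyA RNA of strain RLP-9953-sp was sequenced from 9 groups of 3 libraries. VM is vegetative mycelium. P1 is the stage 1 primordium, a white stalk 5 to 20 mm tall without a cap initial. P2_C and P2_S are cap and stipe of the stage 2 primordium, 15 to 25 mm tall with a brown tip. YFB_C and YFB_S are cap and stipe of the young fruiting body, whose stipe is 30 to 40 mm tall and whose cap is up to 5 mm wide. FB_C, FB_S and FB_L are cap, stipe and lamellae of the fruiting body, 50 to 70 mm tall with a flat cap. Fruiting cultures grew on sawdust with bran for 21 days in the dark at 30 °C and were then moved to 25 °C, where light and darkness alternated every 12 h. Mycelium was kept on malt agar, and the labels do not say from which medium, temperature or light VM was harvested, so these cannot be told apart from the stage. All groups share the 1 strain. Tissue labels could not be checked against marker genes, for want of gene names.

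A mushroom spends most of its life as mycelium, a network of hyphae that digests its substrate. Fruiting is set off by cues such as light, cooler air and spent nutrients, upon which hyphae aggregate into a primordium that forms a stipe, a cap and, beneath the cap, lamellae that bear the spore-forming basidia. Some genes of such a program act in one tissue or at one stage, and others throughout fruiting. In bulk tissue, fewer cells of a type and less RNA per cell cannot be told apart.

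Related patterns were counted on the TPM scale, where the sets with fewer of the conditions contain the 4 members by definition. Without the limit on variation, 156 genes met the other conditions. Of the 1966 genes that were even over the fruiting groups at this level, 4 were raised. An even fall in all 8 groups below a VM mean of at least 3 was met by 89 genes. Here the fruiting groups had no lower limit on M, so the counts of raised and lowered genes rest on unlike conditions. The counts moved with the setting. With TPM scaled by TMM factors, 20 genes were evenly raised and 75 evenly lowered. In the authors' deposited log2 RPKM values 29 were evenly raised and 20 evenly lowered. Those values differ from TPM in unit and in the genes held (13805 against 15581) as well as in scaling. Some members lay close to the limits on rise and variation, though Lenti6_1_569724 varied by only 0.31. The smallest rise among them was 1.10 (Lenti6_1_507946), and the nearest gene outside, Lenti6_1_469252, had 0.97. The widest variation among the members was 0.79 (Lenti6_1_577428), and the nearest gene outside, Lenti6_1_614334, had 0.84. No gene met both other conditions and failed on level. The lowest member, Lenti6_1_611870, had a lowest M of 4.95.

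**Figure D1:**
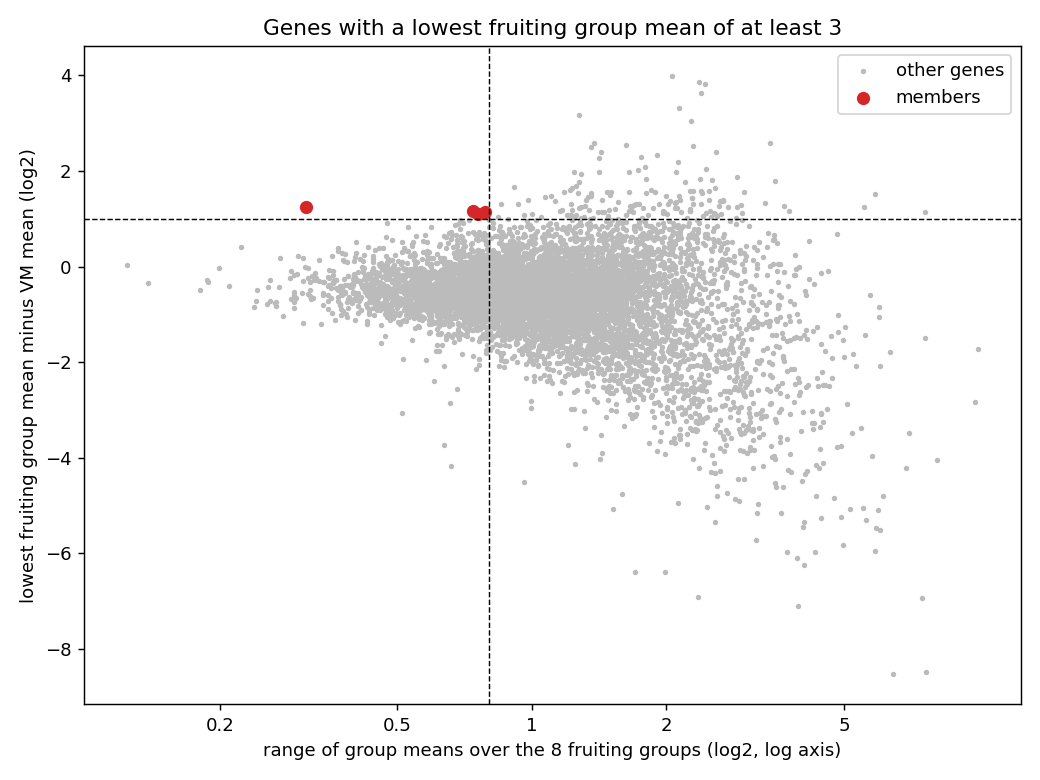
Each point is 1 of the 7680 genes whose lowest fruiting group mean was at least 3. The x axis is the range of M over the 8 fruiting groups (log2, on a log axis), the y axis is the lowest fruiting M minus the M of VM (log2), and dashed lines mark the limits of 0.8 and 1. The 4 members (red) are alone in the upper left, 1 at a range of 0.31 and 3 between 0.74 and 0.79.

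Read by single libraries, the label of an even rise held for 1 of the 4 genes and went against the data for the other 3. In Lenti6_1_611870, Lenti6_1_577428 and Lenti6_1_507946, VM replicates 1 and 2 lay below all 24 fruiting libraries, while VM replicate 3 lay among them. In the same order, 22, 23 and 24 fruiting libraries were at least 2-fold above both VM replicates 1 and 2, on the log2(TPM + 1) scale. The libraries also stood apart by sequencing flowcell. The 27 libraries were run on 6 flowcells, and flowcell C6U49ANXX held 4 of them, VM replicates 1 and 2, FB_C replicate 2 and FB_L replicate 1. Averaged over the 4 members, these were the 4 lowest of the 27 libraries, though the choice itself required a low VM mean. By gene, FB_C replicate 2 ranked 9 from the lowest of the 24 fruiting libraries in Lenti6_1_507946, and FB_L replicate 1 ranked 6 in Lenti6_1_569724. Against the other replicates of their group, these libraries had medians of -1.07 and -1.08 (log2) in the 156 genes. The medians were -0.62 and -1.27 in the members and -0.02 and -0.05 in the 7680 genes. Relative to the members' fruiting mean (log2), FB_C replicate 2 and FB_L replicate 1 both stood at -0.70, and VM replicates 1 and 2 at -2.07 and -2.01. VM replicate 3, on flowcell C7J7LANXX with 4 fruiting libraries, stood at -0.22. A library had between 10.8 M and 31.8 M reads on genes, and VM replicates 1, 2 and 3 had 14.8, 14.4 and 26.7 M. The part of flowcell and depth in these differences was not tested beyond the values that follow.

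Lenti6_1_569724, a model of 976 bases, was the most even member and the one in which no fruiting library overlapped VM. Its libraries had 60.9, 79.6 and 73.6 TPM in P1 (replicates 1, 2 and 3). In the stage 2 primordium they had 60.6, 58.6 and 67.0 TPM in cap and 68.8, 64.7 and 75.7 TPM in stipe. All fruiting values to this stage fell in a band narrower than the gap to VM. The young fruiting body had 64.3, 69.3 and 94.6 TPM in cap and 68.1, 65.1 and 83.8 TPM in stipe. In the fruiting body the values were 59.3, 46.5 and 79.1 TPM in FB_C, 67.4, 80.3 and 64.5 TPM in FB_S (replicates 2, 3 and 4) and 61.3, 82.0 and 76.0 TPM in FB_L. VM had 30.9, 15.7 and 30.5 TPM. The lowest fruiting library, FB_C replicate 2 at 46.5 TPM, was thus above the highest VM library. The fruiting libraries averaged 69.6 ± 10.4 TPM (SD, n = 24) and VM averaged 25.7 ± 8.64 TPM (SD, n = 3). Over all tested genes, the 24 fruiting libraries were all above the 3 VM libraries in 1.36%.

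The same gene had its highest M in YFB_C (6.25) and its lowest in FB_C (5.94), a range of 0.31. In the order of the 9 group means, YFB_C, FB_L, YFB_S, P1, FB_S, P2_S, P2_C, FB_C and VM, each neighbouring pair overlapped except FB_C and VM. M was 1.26 (FB_C) to 1.57 (YFB_C) above that of VM. VM replicate 2 was the low one, and without it the smallest rise was 0.95, under the limit of 1. Of the 24 fruiting libraries, 18 were at least 2-fold above VM replicate 3 alone, on the log2(TPM + 1) scale.

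**Figure D2:**
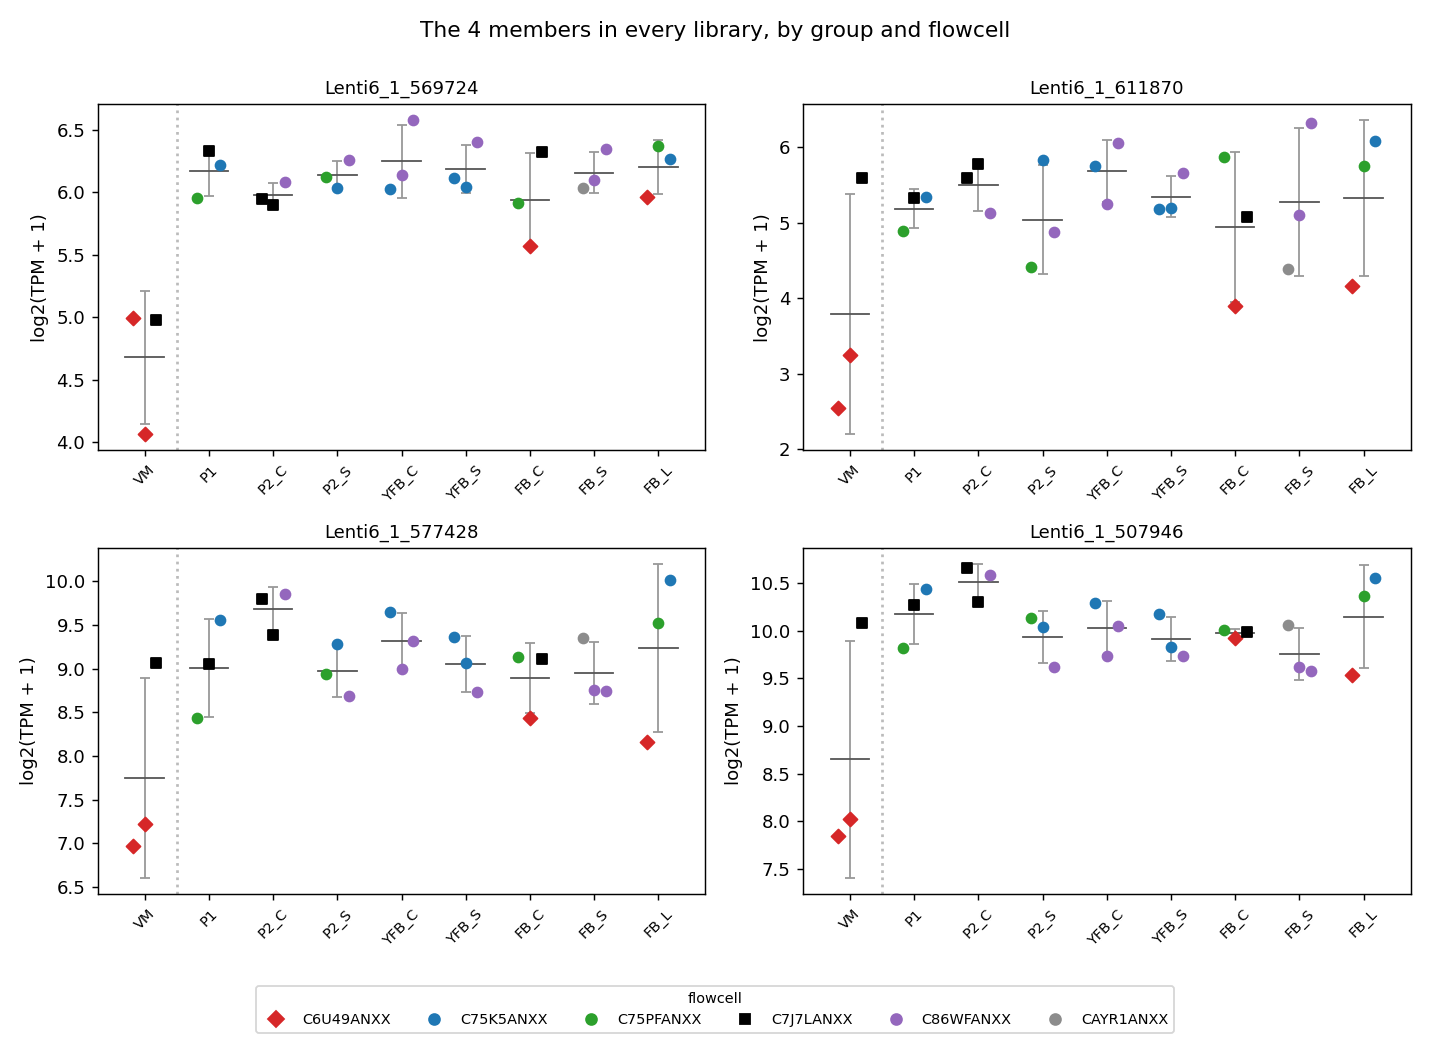
The y axis is log2(TPM + 1) and the x axis gives the 9 groups. Each point is 1 library, coloured by flowcell, horizontal lines are group means and error bars are ± 1 SD (n = 3). In Lenti6_1_569724 all VM points lie below all fruiting points, while in the other 3 genes the black square of VM replicate 3 lies among the fruiting points and the red diamonds of flowcell C6U49ANXX are low in VM, and in FB_L throughout.

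Lenti6_1_611870, the longest member at 1953 bases and the one with the lowest level, had the widest spread. P1 had 28.7, 39.3 and 39.5 TPM. The stage 2 primordium had 47.1, 53.7 and 33.9 TPM in cap and 20.4, 55.8 and 28.5 TPM in stipe. Replicates of one tissue thus differed by more than the means of the groups. The young fruiting body had 52.7, 37.1 and 65.7 TPM in cap and 35.4, 35.7 and 49.6 TPM in stipe. The fruiting body had 57.6, 13.9 and 32.8 TPM in FB_C, 33.4, 79.0 and 19.9 TPM in FB_S (replicates 2, 3 and 4) and 16.8, 53.0 and 66.7 TPM in FB_L. VM had 4.83, 8.52 and 47.1 TPM. VM replicate 3 was above 15 of the 24 fruiting libraries, and no fruiting library was 2-fold above it. The fruiting libraries averaged 41.5 ± 16.8 TPM (SD, n = 24) and VM averaged 20.2 ± 23.4 TPM (SD, n = 3), so the SD over VM exceeded its mean. The VM range on the log2(TPM + 1) scale, 3.05, was at least as wide as that of 98.9% of the 7680 genes with a lowest fruiting M of at least 3. The order of M was YFB_C, P2_C, YFB_S, FB_L, FB_S, P1, P2_S, FB_C and VM, and each neighbouring pair overlapped.

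Lenti6_1_577428 (380 bases) and Lenti6_1_507946 (366 bases) were the short and abundant members; 4.77% and 4.33% of gene models are as short or shorter. Lenti6_1_577428 had 345, 528 and 749 TPM in P1, 891, 667 and 926 TPM in P2_C and 490, 621 and 412 TPM in P2_S. It had 798, 510 and 637 TPM in YFB_C and 659, 534 and 423 TPM in YFB_S. In these stages P2_C was the highest group. The mature tissues had 562, 345 and 552 TPM in FB_C, 431, 426 and 653 TPM in FB_S (replicates 2, 3 and 4) and 284, 735 and 1035 TPM in FB_L. VM had 124, 148 and 534 TPM. VM replicate 3 was above 10 of the 24 fruiting libraries. P2_C was the single fruiting group whose 3 libraries all lay above VM. The fruiting libraries averaged 592 ± 193 TPM (SD, n = 24) and VM averaged 268 ± 230 TPM (SD, n = 3).

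Lenti6_1_507946 had the highest level of the 4, with 902, 1231 and 1385 TPM in P1, 1611, 1260 and 1530 TPM in P2_C and 1125, 1050.1 and 785 TPM in P2_S. It had 1254, 851 and 1061 TPM in YFB_C and 1155, 909 and 853 TPM in YFB_S. P2_C was again the highest group. The mature tissues had 1027, 972 and 1015 TPM in FB_C, 786, 762 and 1069 TPM in FB_S (replicates 2, 3 and 4) and 742, 1312 and 1497 TPM in FB_L. VM had 228, 259 and 1083 TPM. VM replicate 3 was above 14 of the 24 fruiting libraries, and VM replicates 1 and 2 were below all 24. The fruiting libraries averaged 1089 ± 253 TPM (SD, n = 24) and VM averaged 523 ± 485 TPM (SD, n = 3). As in Lenti6_1_577428, only P2_C had all 3 libraries above VM, against 13.0% of such gene and group pairs over all tested genes.

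Within flowcells the 4 genes parted. On flowcell C6U49ANXX, the 2 fruiting libraries lay above the 2 VM libraries in all 4 genes, as in 16.7% of tested genes. The differences of means, fruiting minus VM on the log2(TPM + 1) scale, were 1.24 for Lenti6_1_569724, 1.13 for Lenti6_1_611870, 1.21 for Lenti6_1_577428 and 1.80 for Lenti6_1_507946. On flowcell C7J7LANXX, with P1 replicate 2, P2_C replicates 1 and 2 and FB_C replicate 3 against VM replicate 3, only Lenti6_1_569724 had all fruiting libraries above VM, as in 21.7% of tested genes. Its difference there was 1.15. The other 3 differed by -0.15 (Lenti6_1_611870), 0.27 (Lenti6_1_577428) and 0.22 (Lenti6_1_507946). These are differences of 2 libraries against 2 and of 4 against 1, with no test. All these libraries entered the choice of the members, so a higher share than in tested genes is partly built in. With 1 VM library on flowcell C7J7LANXX, that flowcell and that VM library cannot be told apart.

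**Figure D3:**
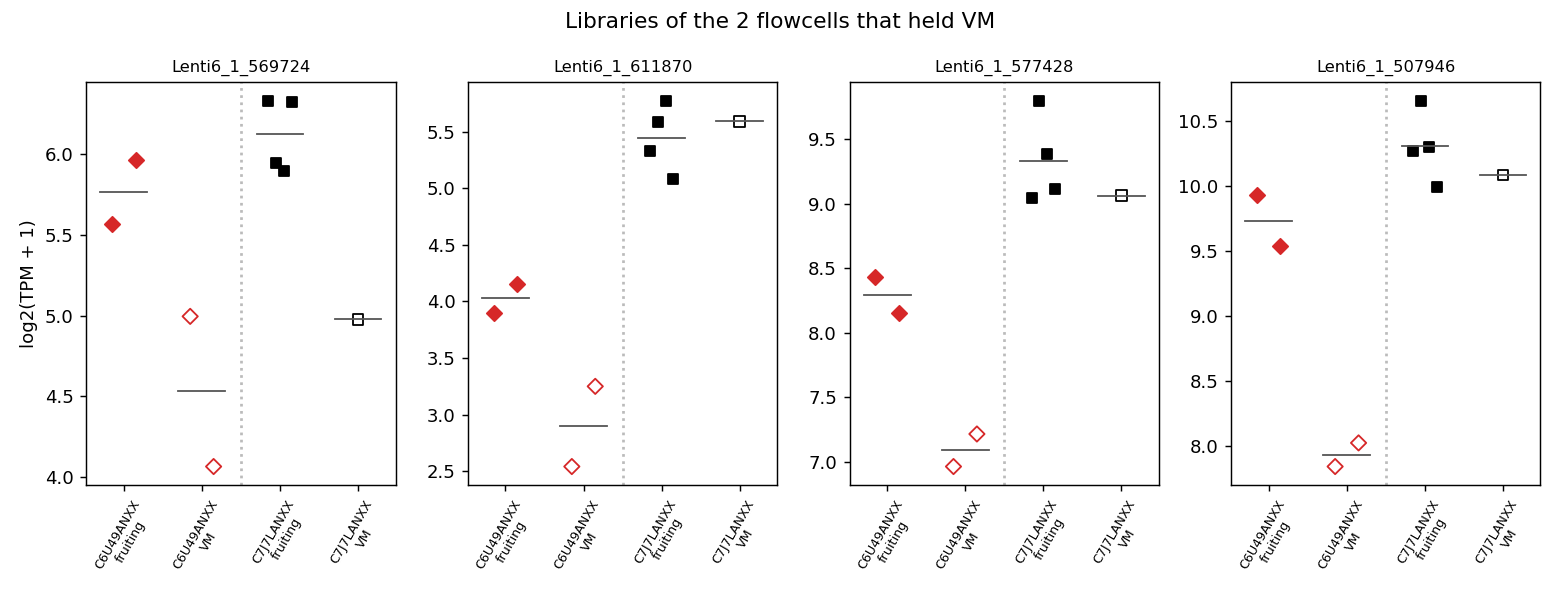
The y axis is log2(TPM + 1). For each of the 4 genes, filled points are fruiting libraries and open points VM libraries of flowcell C6U49ANXX (red diamonds, 2 and 2) and of flowcell C7J7LANXX (black squares, 4 and 1), with lines at the means. Lenti6_1_569724 is higher in fruiting libraries on both flowcells, by 1.24 and 1.15, and in the other 3 genes the VM square of the second flowcell lies among its fruiting squares.

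The split within VM was also measured in the 156 genes raised in all fruiting groups with no limit on variation. VM replicate 3 minus the mean of replicates 1 and 2 had a median of 2.06 (log2) in the 4 members, against 0.76 in the 156 genes and -0.13 in the 7680 genes of this level. VM replicate 3 reached the lowest fruiting M in 3 of the 4 members, in 29 of the 156 genes (18.6%) and in 83.1% of the 7680 genes. The 7680 genes were not chosen for a rise, so the 156 genes are the nearer comparison. On both flowcells that held VM, 96 of the 156 genes were at least 1 higher in fruiting libraries, against 2.64% of the 7680 genes. These counts describe genes chosen on the same libraries and were not tested. The 2 nearest genes outside the limits were mixed as well. Lenti6_1_469252 ranged from 22.7 to 80.4 TPM in fruiting libraries (median 48.0) and had 14.4, 8.92 and 56.4 TPM in VM. Lenti6_1_614334 ranged from 86.7 to 288 TPM in fruiting libraries (median 186) and had 47.1, 60.1 and 90.4 TPM in VM.

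Leaving out 1 VM library at a time gave a partial check, on a library that the choice had not used. The lowest fruiting M set against it was still part of the choice. VM replicates 1 and 2 also share flowcell C6U49ANXX, so leaving out 1 of them kept the other in the choice. Without VM replicate 3, 18 genes met the 3 conditions, the 4 members among them. In the left-out VM replicate 3, 0 of these 18 genes were at least 1 below the lowest fruiting M, against 1.54% of the 7680 genes of this level. It lay below that M at all in 5 of the 18, against 16.9%. These shares are descriptions. Without VM replicate 1, 2 genes met the conditions, and in both the left-out library lay below the lowest fruiting M, by 0.51 and 0.94, against 23.1% of the 7680 genes that did so. In 0 of the 2 was it at least 1 below, against 4.58%. Lenti6_1_569724 was 1 of the 2. Without VM replicate 2, 0 genes met them.

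Among the fruiting groups the members varied little, as the choice required. P2_C and YFB_C each held the highest M of 2 members, and FB_C held the lowest M of 3 and FB_S of 1. Several of these places changed without the 2 fruiting libraries of flowcell C6U49ANXX. Without FB_C replicate 2, FB_C was the lowest group of 0 members. Lamellae lay 0.04 to 0.09 above a member's own fruiting mean in all 4, and 0.18 to 0.56 above it without FB_L replicate 1. FB_L was then the highest group of Lenti6_1_569724 (M of 6.32), Lenti6_1_611870 (5.92) and Lenti6_1_577428 (9.77). Without that library M varied by 0.97 among the fruiting groups in Lenti6_1_611870 and by 0.88 in Lenti6_1_577428, past the limit of 0.8. Libraries of 2 fruiting groups did not overlap in 0 of 28 pairs for Lenti6_1_569724 and Lenti6_1_611870, in 4 pairs for Lenti6_1_577428 and in 5 for Lenti6_1_507946, against 33.9% of such pairs over all tested genes. In each of those 9 pairs P2_C was the higher group, and P2_S, YFB_S, FB_C and FB_S were the lower group in both genes.

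On the TPM scale, caps had a higher mean M than stipes in 3 members. The difference was 0.31 in Lenti6_1_577428, 0.30 in Lenti6_1_507946 and 0.16 in Lenti6_1_611870, and it was -0.11 in Lenti6_1_569724. In edgeR, a count fit with TMM scaling, the log2 fold changes of cap over stipe were 0.06, 0.05, -0.12 and -0.36 in the same order, so the sign turned for Lenti6_1_611870. Mature minus young M (FB_C and FB_S minus YFB_C and YFB_S) was between -0.41 (Lenti6_1_611870) and -0.11 (Lenti6_1_507946), and the edgeR values, between -0.01 and 0.13, were positive in 3 of the 4. FB_L minus FB_C was 0.17 to 0.38 in M, and -0.01 to 0.23 in edgeR. The fits differ from M in the statistic as well as the scaling. With TMM factors applied to TPM and M computed as before, the one sign that turned was mature minus young in Lenti6_1_507946, at 0.06, against -0.11 unscaled. More signs turned in the authors' log2 RPKM values. There, mature minus young was 0.06 in Lenti6_1_569724 and 0.13 in Lenti6_1_507946. Cap minus stipe was -0.10 in Lenti6_1_611870, and FB_L minus FB_C was -0.06 in Lenti6_1_507946. The other signs held. Single libraries moved these differences too. In edgeR, FB_L minus FB_C was 0.10 to 0.59 over the 4 members without FB_L replicate 1, -0.22 to 0.02 without FB_L replicate 3 and -0.28 to 0.02 without FB_C replicate 2. In Lenti6_1_611870 it was 0.73 without FB_C replicate 1, against 0.11 with all libraries. For the same gene, cap over stipe was 0.11 and mature over young -0.33 without FB_S replicate 3.

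In edgeR fits over all genes, members were counted beside the background at an adjusted p under 0.05. A difference among the 8 fruiting groups was called for 0 of the 4, against 51.6% of tested genes. Cap against stipe called 0 (background 24.4%), mature against young 0 (6.46%) and FB_L against FB_C 0 (2.68%). At an unadjusted p under 0.05, cap against stipe gave 1 member, Lenti6_1_569724, and the other 3 comparisons gave 0. DESeq2 and limma-voom called 0 in all 4 comparisons too. The limit of 0.8 on variation shapes these counts, and nothing is read from them. The mean of the 8 fruiting groups against VM called 3 of the 4, all higher and without Lenti6_1_611870, against 43.4% of tested genes called and 19.7% called higher. DESeq2 and limma-voom called all 4 (background 46.3% and 43.8%), with log2 fold changes of 1.25 and 1.80 for Lenti6_1_611870. These backgrounds, and those that follow, count calls in both directions. Called higher against VM were 3154 genes in DESeq2 and 2906 in limma-voom, of 13569. The choice used that contrast. With flowcell as a covariate Lenti6_1_569724 and Lenti6_1_507946 were called (background 22.2%, with 1484 of 13569 genes called higher). Their log2 fold changes were 1.38 and 0.97, against 1.70 and 1.24 without the covariate. Lenti6_1_577428 and Lenti6_1_611870 then stood at 0.63 and 0.61, against 1.32 and 1.22. Without the 4 libraries of flowcell C6U49ANXX only Lenti6_1_569724 was called (background 17.3%), at 1.39, and the other 3 stood at 0.06 to 0.35.

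The members were well covered. Lenti6_1_611870 had 106 to 2414 reads per library, Lenti6_1_569724 168 to 1627, Lenti6_1_577428 529 to 8886 and Lenti6_1_507946 939 to 15477. Their reads were close to entirely unique, at 100% after rounding. Together the 4 genes took 1104 to 2676 TPM in fruiting libraries (median 1749), and 388, 431 and 1695 TPM in VM replicates 1, 2 and 3. The sum in VM replicate 3 lay inside the fruiting range.

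How many genes met the conditions depended on the scaling between libraries and on VM. With TPM scaled by TMM factors 20 genes met them, and 29 did in the authors' deposited log2 RPKM values, the 4 members included in both. In the 7680 genes, the mean over the fruiting groups minus the mean of VM had a median of -0.12 (log2) as reported. This median was 0.05 with TMM scaling and 0.15 in the deposited log2 RPKM values. It is not the rise of the conditions, which takes the lowest fruiting M in place of the mean. Of the 20 genes, 4 had all 24 fruiting libraries above all VM libraries in TPM, against 1.36% of tested genes. In unscaled values VM replicate 3 lay below the lowest fruiting M in 13, against 16.9% of the 7680 genes. The 20 genes were chosen on these same libraries. Without the 4 libraries of flowcell C6U49ANXX, 5 genes met the conditions against VM replicate 3 alone, and none was among the 4 members. In that setting Lenti6_1_569724 missed the limit with a rise of 0.999.

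**Figure D4:**
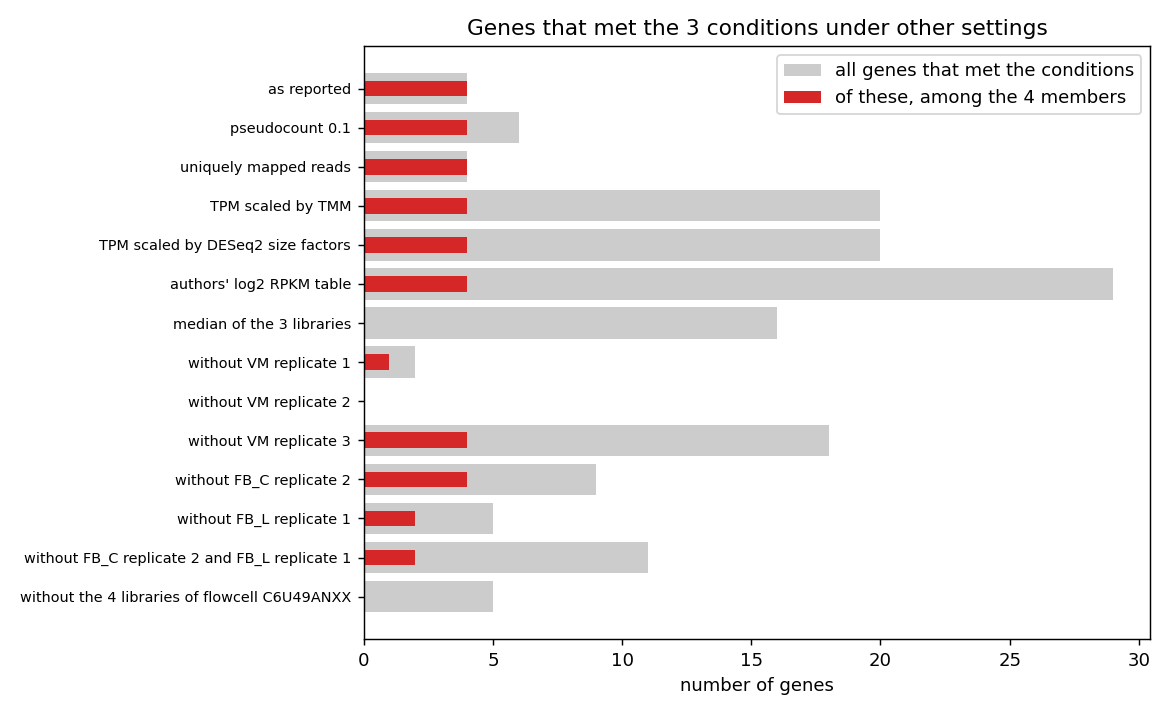
Bars give the number of genes that met the 3 conditions under each setting (grey) and how many of them were among the 4 members (red); the x axis is the number of genes. The count was 4 as reported, 20 and 29 with TMM scaling and in the authors' table, 18 without VM replicate 3 and 0 without VM replicate 2.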

How the data were processed

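PolyA RNA libraries were made with an Illumina kit, per the labels' protocols. The submitters' processing notes name edgeR 3.4.2, limma 3.18.13 and R 3.0.2. The strand setting, aligner and genome build were not given in the sources used here. The authors deposited, per the file headers, whole read counts per gene model (all and uniquely mapped), gene length in bases and TPM, and 1 table of log2 RPKM for 13805 genes, which held 0 columns of other samples. Deposited TPM equalled values recomputed from counts and lengths to within 3.49e-10. The reference table of another assembly held 15665 genes and matched 0 identifiers.

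Groups followed the titles. The members and tests were chosen with earlier results of these data known. Counts of 13569 genes (edgeR filterByExpr, minimum count 10, 2012 genes removed) were scaled by TMM and fitted with 9 group means and 18 residual degrees of freedom in edgeR 4.0.16 (R 4.3.3). Calls are at a Benjamini-Hochberg adjusted p under 0.05, two-sided. DESeq2 1.42.0 and limma 3.58.1 (voom) were alternatives. The code was tested on simulated data. Python 3.11.15 computed the rest. The labels call replicates biological. No 2 libraries of a group agreed within sampling noise (chi-square per degree of freedom at least 43.9). Named genes are the 4 members and, by a rule, the gene nearest outside each limit. TPM fixes each library's total, so a few abundant genes shift all others.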

Additional observations from a re-analysis of the deposited data

How the results depend on the processing

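The number of genes meeting the conditions was 4. It was 20 with TPM scaled by TMM or by DESeq2 size factors, 29 in the authors' log2 RPKM table, 16 with group medians (none of them a member), 11 without FB_C replicate 2 and FB_L replicate 1, and 0 to 18 when 1 library was left out. It was 2 without VM replicate 1, P2_S replicate 2, FB_C replicate 3 or FB_S replicate 4, 0 without VM replicate 2, 18 without VM replicate 3 and 9 without FB_C replicate 2. It was 6 with a pseudocount of 0.1 and 4 with uniquely mapped reads. The number of evenly lowered genes, 89, was 75 and 73 with TPM scaled by TMM or DESeq2 size factors and 20 in the authors' log2 RPKM table, settings added after seeing the data. The cause was not tested.

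The rise of Lenti6_1_611870, Lenti6_1_577428, Lenti6_1_507946 and Lenti6_1_469252 turned to -0.55, -0.11, -0.33 and -0.48 without the 4 libraries of flowcell C6U49ANXX, and to -0.64, -0.17, -0.33 and -0.51 without VM replicates 1 and 2. Both settings were added after seeing the data. Over these and all other settings, the rise of Lenti6_1_569724 was 0.94 to 1.45.

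Of the 3 members called against VM, 1 was left without VM replicate 1, where 3937 of 13620 tested genes were called. Without VM replicate 2, 1 was left as well, beside 4383 of 13628 genes (1 to 4 members with 1 library left out). For cap against stipe, 1 member, Lenti6_1_569724, was called in place of 0 with the replicate number as a block, beside 2873 of 13569 genes. With 1 library left out, 0 to 1 members were called. The count was 1 without VM replicate 2 (beside 3248 of 13628 genes), YFB_C replicate 3 (2767 of 13639) or FB_C replicate 3 (3254 of 13635). With the replicate block all 4 members were called against VM, beside 5651 of 13569 genes, and 0 in the other 3 comparisons. Those called 6089 genes among the 8 fruiting groups, 674 for mature against young and 229 for FB_L against FB_C. The labels do not say what a replicate number shares. Correlations of deviations for the same number ranged from -0.50 to 0.60, exceeded 0.1 in all 3 pairs for 3 of 28 pairs of groups, and were best with the own number for 10 of 27 libraries. In every other setting tried, 0 members were called among fruiting groups. Members had at least 106 reads in each library, so counting error was small beside the spread of the 3 VM libraries.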
